A study of Homo sapiens with 2 samples.

Results

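Doxorubicin-resistant SUM159 cells grown as spheroids (3D) were compared with doxorubicin-resistant SUM159 cells grown attached (2D). The members were all barcodes with at least 1000 unique molecular identifiers (UMIs, counted RNA molecules), which left 2558 of 3776 spheroid barcodes and 7032 of 7032 attached barcodes, or 9590 of the 30122 barcodes in the series. SUM159 is an established human triple-negative breast cancer line, described in the labels as wild type, and transcripts of a breast cancer gene panel had been counted in its single cells by BD Rhapsody. The series has 2 samples, 1 for each culture form, and each cartridge pooled 3 tagged populations, which were treatment-naïve cells and cells resistant to paclitaxel or to doxorubicin. Resistance had been built up in attached cells with rising doses of the drug, which the study's methods describe as pulses separated by drug-free recovery. For spheroids the methods also mention further treatments after growth, without naming them. An equal drug exposure of the groups compared here is therefore not established. The labels call the doxorubicin population of the spheroid sample treated rather than resistant, and the population of each file was read from its name, because the labels do not tie tags to files. For spheroids, the study's methods describe cells embedded in Matrigel in Ham's F12 with fetal bovine serum, whereas the labels give 1 medium with insulin and hydrocortisone for both samples. Culture form, matrix, possibly medium, possibly drug exposure, and cartridge therefore differed together and cannot be told apart. There was 1 sample for each culture form, so no difference below could be set against replicate error, no test was run, and every interval covers counting error only.

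Doxorubicin is an anthracycline that poisons topoisomerase II and breaks DNA in dividing cells, and it is a substrate of the efflux pumps encoded by ABCB1 and ABCG2. Cells inside a spheroid meet gradients of oxygen and nutrients, have contacts with neighbours and matrix on all sides, and often divide less than cells on plastic. Within SUM159 cultures, cells with epithelial traits and cells with strongly mesenchymal traits coexist.

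The values bore out a mesenchymal, triple-negative line only in part. VIM, the intermediate filament of mesenchymal cells, was at 107603 CPM (a gene's UMIs per 1000000 UMIs of the kept cells) in attached cells and at 130531 CPM in spheroid cells. In the same order, the collagen genes COL1A1 and COL3A1 were at 1874 and 2708 CPM and at 146 and 988 CPM. Epithelial keratins were present too, with KRT18 at 13014 and 16338 CPM and KRT8 at 3932 and 2931 CPM. ESR1, the oestrogen receptor, was at 5.23 and 3.64 CPM, and PGR is not listed in the files. ERBB2, the receptor whose amplification defines another breast cancer subtype, was nevertheless detected, at 1166 and 753 CPM. The triple-negative status could therefore not be read from these counts. ABCB1 was at 7691 CPM in attached and 6270 CPM in spheroid doxorubicin-resistant cells, against 146 and 234 CPM in the treatment-naïve cells of the same cartridges. The doxorubicin-labelled files of both cultures thus held the transporter transcript far above the treatment-naïve files. This does not tell them from the paclitaxel-labelled files. There ABCB1 and ABCG2 summed to 5568 CPM in attached and 4012 CPM in spheroid cells, against 272 and 419 CPM in treatment-naïve cells.

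Kept cells were of similar depth in the 2 cultures. The 7032 attached cells held 29451390 UMIs with a median of 3814 UMIs and 141 genes per cell, and the 2558 spheroid cells held 10167156 UMIs with a median of 3580.5 UMIs and 131 genes. The 5 most abundant genes took 48.5% of attached and 54.7% of spheroid UMIs, and GAPDH alone took 18.5% and 21.9%. The 1218 spheroid barcodes left out carried 3.57% of that file's UMIs. Just outside the threshold lay 250 spheroid barcodes with 500 to under 1000 UMIs and a median of 69 genes, and just inside lay 238 with 1000 to under 1500 UMIs and a median of 90 genes. The attached file held no barcode under 1000 UMIs. The attached files together held more barcodes than the cells stated as loaded in the labels. The doxorubicin spheroid and attached files shared 35 barcode numbers. A total of 366 spheroid and 977 attached kept cells had counts that matched another population of their own cartridge better than their own, and the calls that change without them are given near the end.

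**Figure D1:**
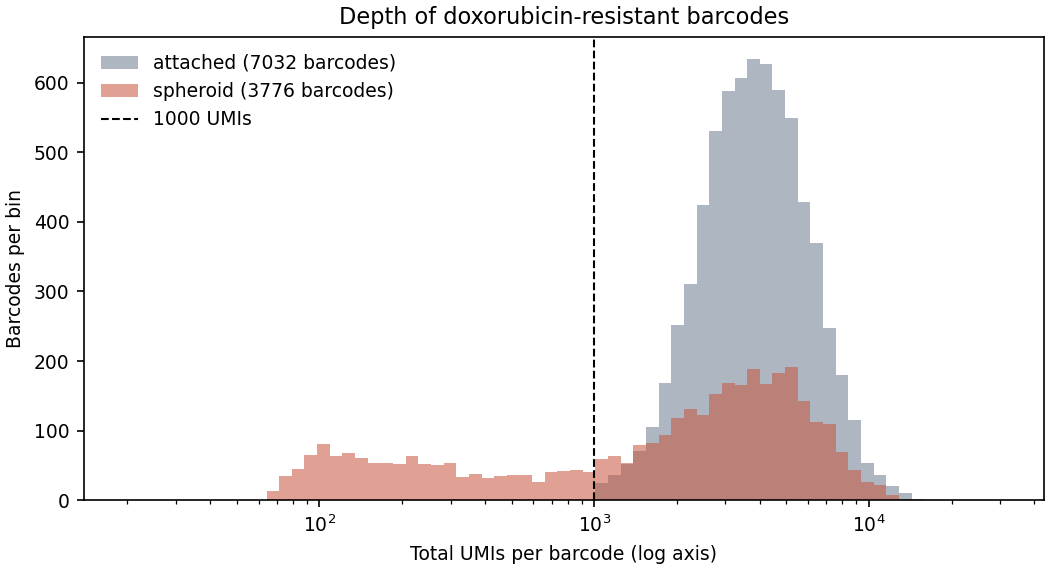
Histogram of total UMIs per barcode (log axis) for the doxorubicin-resistant population in attached culture (grey, 7032 barcodes) and in spheroids (red, 3776 barcodes), with barcodes per bin on the vertical axis and the minimum of 1000 UMIs as a dashed line. All attached barcodes lie to the right of the line, while the 1218 spheroid barcodes to its left form a broad second group.

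Of 373 genes listed in the files, 268 had at least 50 UMIs in either population and were counted as measured. A gene was called where the CPM values differed at least 2-fold and the higher population held 50 UMIs or more. By this rule 48 genes were higher in spheroids (17.9% of those measured), 45 were lower (16.8%) and 175 were neither, so that 93 (34.7%) were called in all. The 50-UMI minimum applied to raw counts, from 29451390 attached and 10167156 spheroid UMIs. A lower call was thus open at a lower CPM than a higher call. EGF at 1.97, FOXP3 at 1.94 and CCND2 at 2.61 CPM in attached cells were lower calls. The split and the shares called carry this unequal minimum. The median log2 fold (spheroid over attached CPM) over measured genes was -0.34, with quartiles of -0.84 and 0.44, so the typical gene sat somewhat below its attached level when totals were equalised. Scaling by the median of ratios sets this median to 0 and adds 0.34 to every log2 fold. With that scaling the split changed from 48 higher and 45 lower (51.6% of calls higher) to 55 higher and 26 lower (67.9% higher). Scaling without the 5 most abundant genes of either population gave 53 and 36 (59.6% higher). Thinning every cell to 1000 UMIs gave 34 and 50 (40.5% higher), but it also cut the counts set against the same 50-UMI minimum. Measured genes fell from 268 to 233, and the 14 higher calls lost were those also lost with a minimum of 200 UMIs. The 19 lower calls that median scaling removed were ANLN, BCL2, CCND2, CCNE2, CDC20, DCK, DTL, FCRLA, FOXC1, FOXO1, ID1, IGFBP5, KIF2C, MYBL2, MYC, NDC80, PDGFB, PHGDH and THBS1. Relative to the median gene, these 19 were less than 2-fold lower in spheroids. All 48 higher calls were kept under median scaling, as they had to be with every log2 fold raised. No called gene changed direction under any alternative run, but rescaling shifts all genes alike and by too little to reverse a call.

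**Figure D2:**
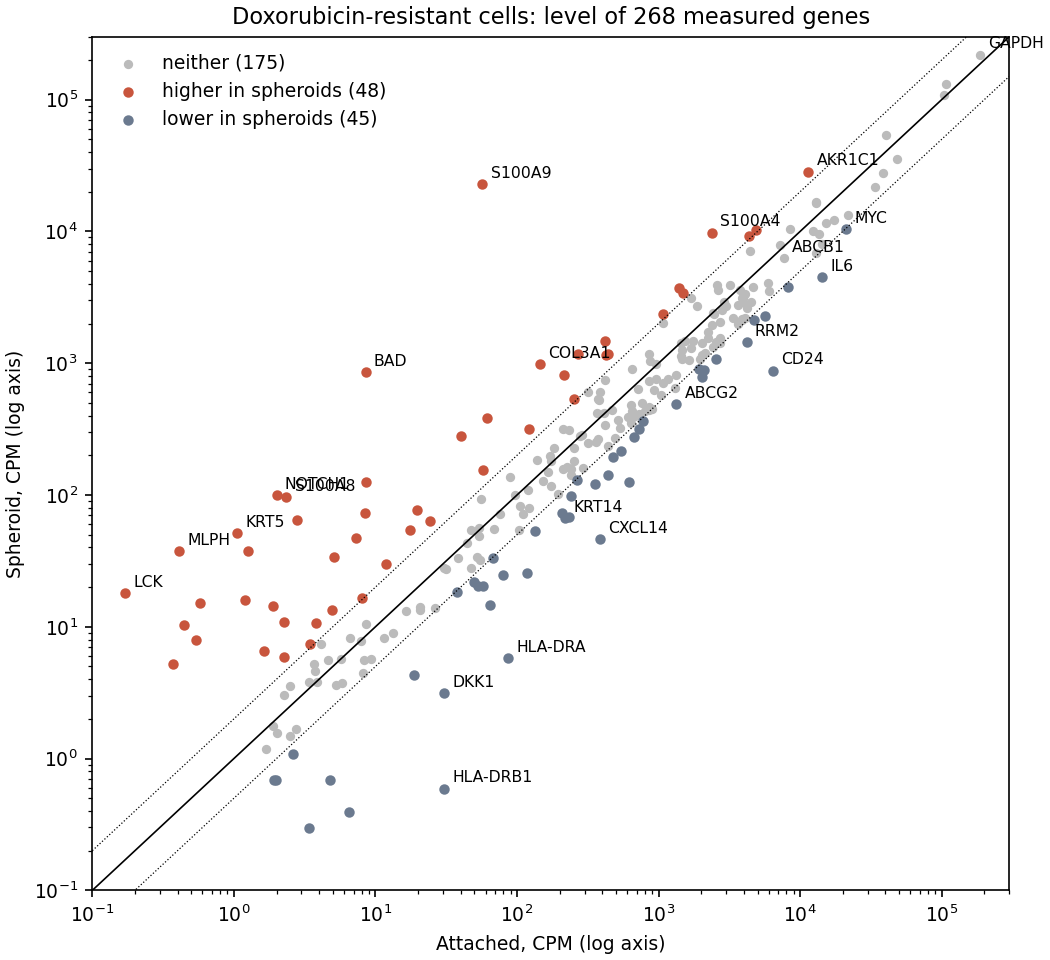
CPM in attached (horizontal) and spheroid (vertical) doxorubicin-resistant cells on log axes, 1 point per measured gene. The solid line marks equal CPM, the dotted lines a 2-fold difference, red the 48 genes higher in spheroids and grey-blue the 45 lower. S100A9 and BAD stand farthest above the line among the genes well expressed in spheroids, and CD24 lies well below it.

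S100A9, a calcium-binding alarmin that pairs with S100A8 to form calprotectin, showed the largest fold of all measured genes. The gene lies at chr1:153357854-153361023 in GRCh38.p14. It was at 56.7 CPM in attached cells (1671 UMIs) and at 22941 CPM in spheroid cells (233242 UMIs), a fold of 404 (95% interval 385 to 425). With each cell thinned to 1000 UMIs, 4.21% of attached and 77.4% of spheroid cells held at least 1 S100A9 UMI, and before thinning the shares were 12.4% and 91.6%. The spheroid cells were far from uniform. At 1000 UMIs per cell, the median spheroid cell had 5 S100A9 UMIs, the upper quartile was 28 and the 90th percentile was 64, while 40.6% had more than 10. In attached cells the 90th percentile was 0 and no cell exceeded 10 (the highest held 9). S100A8, the partner subunit, was at 2.34 and 96.1 CPM, a fold of 41.0 (32.1 to 53.1). It was found in 8.76% of thinned spheroid cells against 0.171% of attached cells. Among spheroid cells, S100A8 was detected in 10.7% of those with S100A9 and in 2.25% of the rest.

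BAD, which encodes a BH3-only protein that promotes apoptosis by binding BCL2 relatives, was close to absent from attached cells and present in most spheroid cells. The gene lies at chr11:64269828-64284704. Its level was 8.52 CPM in attached and 854 CPM in spheroid cells, 100.2-fold higher (88.4 to 114). The thinned shares of cells with a UMI were 0.754% and 53.1%, and unthinned shares were 3.41% and 85.3%. Unlike S100A9, BAD was spread thinly and evenly: at 1000 UMIs the median spheroid cell had 1 UMI and the 99th percentile was 4. The 2 genes were not found in the same cells more often than apart, since BAD was detected in 52.0% of spheroid cells with S100A9 and in 56.5% of those without. BAD had a log2 fold of 6.65 here, 6.39 in treatment-naïve and 6.79 in paclitaxel-resistant cells, so the difference between the cartridges was of like size in every population they carried.

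NOTCH1, a receptor of cell-to-cell signalling, was at 2.00 CPM in attached and 99.2 CPM in spheroid cells, 49.5-fold higher (38.1 to 65.6). Its thinned share was 0.299% and 9.97%. ICOSLG, a ligand that costimulates T cells, went from 2.78 to 64.4 CPM, 23.1-fold higher (18.4 to 29.5), with 7.15% of thinned spheroid cells positive. These transcripts were held by many cells: it took 215 spheroid cells to reach 50% of the NOTCH1 UMIs and 176 to reach 50% of the ICOSLG UMIs. S1PR1, a sphingosine 1-phosphate receptor, had 8.62 and 126 CPM and a 14.6-fold difference (12.8 to 16.8).

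Other large folds rested on low counts or on few cells. LCK, a kinase of T cell receptor signalling, was at 0.170 CPM in attached and 17.9 CPM in spheroid cells, 105-fold higher (44.4 to 329), from 5 and 182 UMIs. MLPH, a melanophilin expressed in luminal breast cells, was at 0.407 and 37.6 CPM, 92.2-fold higher (52.2 to 180.0), and reached 3.36% of thinned spheroid cells. Both are positive in small minorities only. KRT5, the basal keratin, was at 1.05 and 51.6 CPM, 49.1-fold higher (34.1 to 73.0), but 3 spheroid cells held at least 50% of its UMIs, and its log2 fold ran from 4.54 without cells that matched another population better to 6.71 with cells of 1000 to 5000 UMIs. The same concentration in 3 cells was seen for GZMA, a cytotoxic granule protease, at 0.441 and 10.2 CPM. C1QA, a complement subunit, was at 1.26 and 37.8 CPM, with at least 50% of its spheroid UMIs in 16 cells. TRAC, the T cell receptor alpha constant region, was at 0.577 and 15.2 CPM. CCR2, a chemokine receptor, was at 0.543 and 7.97 CPM, from 16 and 81 UMIs. For FCGR3A, a low-affinity immunoglobulin receptor, 1 cell held 116 of the 162 spheroid UMIs. Its fold fell from 13.4 to 5.79 without the top cell of each population, which left fewer than 50 UMIs and ended the call. RARB, a retinoic acid receptor, also lost its call in this way.

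CD24, a surface glycoprotein used to separate epithelial-like from mesenchymal breast cancer cells, was lower both in level and in the share of cells with a UMI. The gene lies at chr6:106969831-106976855. CD24 was at 6449 CPM in attached and 878 CPM in spheroid cells, 7.35-fold lower (7.19 to 7.505). At 1000 UMIs per cell 89.96% of attached and 43.5% of spheroid cells held a CD24 UMI, and the median cell held 5 and 0. IL6, an inflammatory cytokine, was at 14212 and 4493 CPM, 3.16-fold lower (3.13 to 3.19). Its thinned share was 85.2% in attached and 55.004% in spheroid cells. Both genes were thus lower across the bulk of the population and not only in a few cells.

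Genes of MHC class II, which presents antigen to helper T cells, were among the 12 largest lower folds. HLA-DRB1 was at 30.4 CPM in attached and 0.590 CPM in spheroid cells (896 and 6 UMIs), 51.5-fold lower (23.6 to 141). HLA-DRA was at 86.4 and 5.80 CPM, 14.9-fold lower (11.5 to 19.6). HLA-DQB1 had 100 attached and 3 spheroid UMIs, a ratio of 11.5 with an interval from 3.83 to 56.7, and its share of attached cells was at the level of stray counts given below. CD74, the invariant chain of class II, was at 64.1 and 14.7 CPM, 4.37-fold lower (3.70 to 5.20), and its log2 fold of -2.13 became -1.25 with cells of 1000 to 5000 UMIs. These transcripts came from a small minority of attached cells: HLA-DRA was detected in 3.48% of thinned attached cells and 49 cells held at least 50% of its UMIs. Within that minority the genes went together, as HLA-DRB1 was found in 26.1% of attached cells with HLA-DRA and in 0.471% of the others. HLA-DRB1 shares sequence with other class II genes, and reads of such copies may have been split or merged in counting.

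TNFRSF9, a costimulatory receptor, had 190 attached and 4 spheroid UMIs and was 16.4-fold lower (6.30 to 60.8). DKK1, a secreted inhibitor of Wnt signalling, was at 30.7 and 3.15 CPM, 9.76-fold lower (6.87 to 14.4). CXCL14, a chemokine, was at 386 and 46.2 CPM, 8.34-fold lower (7.60 to 9.17), with thinned shares of 11.5% and 3.17%. Each of these was detected in a minority of attached cells and in a smaller minority of spheroid cells. AREG, an EGFR ligand, was at 614 and 126 CPM, 4.87-fold lower. FOXA1, a pioneer factor of luminal cells, was at 117 and 25.5 CPM, 4.60-fold lower (4.06 to 5.24). GPR160, an orphan receptor, and KRT81, a hair keratin, completed the 12 largest, with log2 folds of -2.79 and -2.11 from 140 and 551 attached UMIs.

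**Figure D3:**
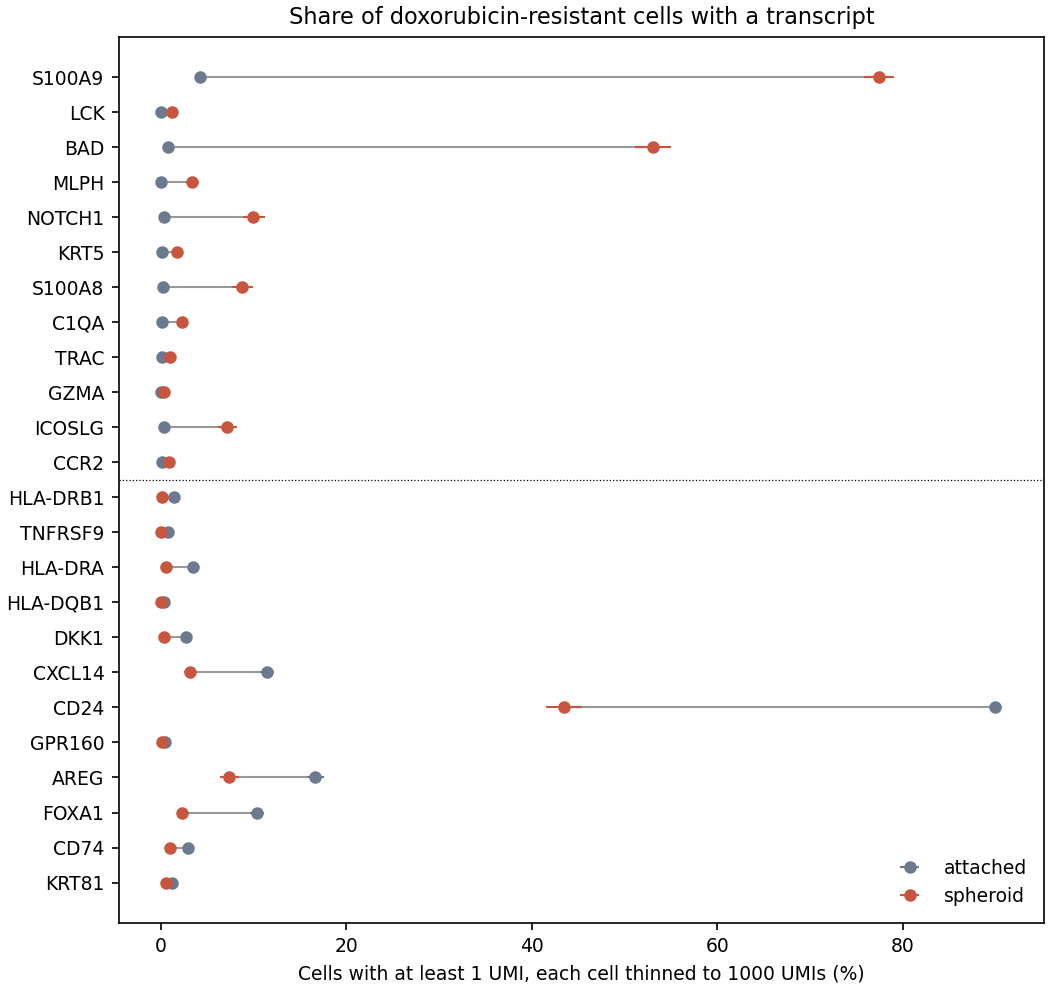
Share of doxorubicin-resistant cells with at least 1 UMI of each gene (percent, horizontal), after thinning every cell to 1000 UMIs, for the 12 largest higher and, under the dotted line, the 12 largest lower genes. Grey-blue points are attached cells, red points spheroid cells, and bars are exact Clopper-Pearson 95% intervals. The wide gaps are those of S100A9, BAD and CD24, while LCK, TNFRSF9 and most others lie near the left edge in both cultures.

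No cell type that must lack a given transcript was present in a single-line culture, so CD3E, CD8A and CD79A served as a rough guide to stray counts. Lymphocyte genes ranged widely in attached and spheroid cells. CD8A was at 0 CPM in both, CD3D at 7.33 and 47.0 CPM, TCL1A at 19.8 and 77.1 CPM and FCRLA at 67.2 and 33.2 CPM. The level taken as stray thus depends on the genes chosen. CD3E and CD8A were found in at most 0.0391% of thinned cells in either culture, whereas CD79A, a part of the B cell receptor, was found in 0.384% of attached and 0.586% of spheroid cells (median depths 3814 and 3580.5 UMIs before thinning). GZMA in spheroid cells (0.352%) and HLA-DQB1 in attached cells (0.284%) were at or below the CD79A share of their own culture and their shares are not read as expression. In level, CD79A was at 3.84 CPM in both cultures. NOTCH1, S100A8, ICOSLG, LCK, MLPH, KRT5, C1QA, TRAC and CCR2 lay below that in attached cells. The size of their folds therefore rests on attached values at the stray level by this guide. The same holds for the higher calls of FCGR3A, GZMA, RARB, CDKN2A, FGF18, LAG3 and CLDN4. Among lower genes, HLA-DRB1, TNFRSF9, GPR160, HLA-DQB1 and DKK1 lay below it in spheroid cells, at 0.590, 0.393, 0.688, 0.295 and 3.15 CPM. The size of those folds rests on spheroid values at that level.

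The transporters that pump doxorubicin out of cells stood apart from each other. ABCB1 (P-glycoprotein, chr7:87503017-87713295) was at 7691 CPM (95% interval 7659 to 7723) in attached and 6270 CPM (6221 to 6319) in spheroid cells, 1.23-fold lower (1.22 to 1.24), which is short of a call. Its log2 fold of -0.29 lay close to the median of all measured genes and became 0.05 under median scaling. ABCG2 (chr4:88090264-88231626) was at 1329 and 490 CPM, 2.71-fold lower (2.64 to 2.80), a call kept under median scaling with a log2 fold of -1.10. At 1000 UMIs per cell ABCB1 was detected in 75.5% of attached and 68.0% of spheroid cells, and ABCG2 in 60.8% and 29.4%. ABCG2 was found a little more often in cells with ABCB1 in both cultures, at 62.1% against 56.6% in attached and 31.4% against 25.3% in spheroid cells.

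The counts of called members given for this and the following gene lists are to be set beside the 17.9% of all measured genes that were higher and the 16.8% that were lower, and the list medians beside the overall -0.34. A member that reached the UMI minimum in 1 culture only could be called only as higher in that culture. Of 8 measured detoxification and metabolic enzymes, 3 were higher and 1 lower, with a median log2 fold of -0.11. AKR1C1, an aldo-keto reductase that can reduce the carbonyl group of anthracyclines, was at 11413 CPM in attached and 28431 CPM in spheroid cells, 2.49-fold higher (2.48 to 2.50). The median cell held 3 AKR1C1 UMIs in attached culture and 14 in spheroids at equal depth. LPCAT1, a phospholipid acyltransferase, was 6.96-fold higher (6.50 to 7.45) and ARG2, mitochondrial arginase, 2.75-fold higher (2.68 to 2.82). PHGDH, the first enzyme of serine synthesis, was at 1940 and 901 CPM, 2.15-fold lower (2.11 to 2.202). GSTP1, a glutathione transferase, had a log2 fold of -0.62. SPHK1, the sphingosine kinase, had one of -0.06 and did not pass the call.

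All 17 genes of the G2/M and mitosis list had a log2 fold under 0, as did 171 of all 268 measured genes. The list's median was -0.87 against -0.34 over all measured genes. Its members were called lower in 4 cases and higher in none, a number of lower calls not far from the 16.8% of all measured genes. Further members lay just short of the threshold, and CCNB1, the mitotic cyclin, CENPA, CEP55, MELK and NUF2 became lower calls when cells were thinned to 1000 UMIs. CDC20, an activator of the anaphase-promoting complex, was at 8246 CPM in attached and 3754 CPM in spheroid cells, 2.197-fold lower (2.17 to 2.22). ANLN, a scaffold of the cytokinetic ring, was 2.48-fold lower (2.44 to 2.51), KIF2C, a microtubule-depolymerising kinesin, 2.35-fold lower (2.30 to 2.40) and NDC80, a kinetochore subunit, 2.31-fold lower (2.23 to 2.40). All 4 missed the 2-fold mark under median scaling, where the list's median was -0.53. The smallest differences were those of MKI67, a marker of proliferating cells, at -0.14 and UBE2C, an E2 enzyme of the same complex as CDC20, at -0.33. Under median scaling MKI67 lay at 0.20 and UBE2C at 0.01, so not all members were under 0 there. UMIs of the whole list per 1000 UMIs of a cell had a median of 49 in attached and 15 in spheroid cells. The distributions overlapped, with 10th and 90th percentiles of 7 and 160 in attached and of 3 and 94 in spheroid cells, and 23.8% of spheroid cells lay above the attached median. The summed CPM values do not separate fewer dividing cells from less mitotic RNA per cell. Cells were not assigned to cycle phases, so neither was tested.

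Promoters of the mitotic list are shown at the cell cycle homology region. Repressor complexes that silence such genes outside G2 and M phase bind this element. The letters TTTGAA on either strand occurred in 11 of 16 matched promoters of the 17 list genes, against 15.2% of all 35116 RefSeq promoters of the same length (250 bases before to 50 after the start, GRCh38.p14). Adding TTCGAA left 11 of 16, against 16.4% of all. The match describes letters in a window and was not tied to the expression values. In the windows below, 30 bases upstream of the start and written along the gene's strand, capitals mark the match nearest the start on that strand. The ANLN window also holds the opposite-strand match, TTCAAA, directly before it in lower case.
CDC20 (chr1:43358904-43358933, plus strand): cgacggttggatTTTGAAggagccaatagg
ANLN (chr7:36389830-36389859, plus strand): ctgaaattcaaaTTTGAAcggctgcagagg
CENPA (chr2:26786026-26786055, plus strand): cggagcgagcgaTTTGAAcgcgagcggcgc
PRC1 (chr15:90994538-90994567, minus strand): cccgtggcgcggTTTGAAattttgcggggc
CENPA, the centromeric histone variant, and PRC1, a crosslinker of the central spindle, had log2 folds of -0.85 and -0.87, close to the list's median, so the element was printed for 2 called and 2 uncalled members.

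The G1/S and DNA replication list was lower by the same median, -0.87 over 16 measured genes, with 5 called lower and none higher. RRM2, a ribonucleotide reductase subunit that supplies nucleotides for replication, was at 4187 and 1451 CPM, 2.89-fold lower (2.84 to 2.94), and kept its call under median scaling. CCNE2, the cyclin that drives S phase entry, was at 242 and 97.7 CPM, 2.48-fold lower (2.32 to 2.65). MYBL2, a transcription factor of the cell cycle, was 2.22-fold lower (2.19 to 2.25). DTL, an adaptor for degradation of replication factors, and CCND2, a D cyclin with 77 and 11 UMIs, were the other calls. CCND2, at 2.61 and 1.08 CPM, lay below the CD79A level in both cultures. CCND1, the D cyclin of these cells, was the only list member above 0, at 8425 and 10368 CPM and a log2 fold of 0.30, and MYB, a proto-oncogene, lay at -0.03. In treatment-naïve cells of the same cartridges the list's median was 0.04 with 2 higher and 1 lower, and in paclitaxel-resistant cells it was -0.68 with 4 lower. The difference between populations was not tested.

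Among 11 CDK inhibitors, p53 targets and apoptosis genes, BAD and CDKN2A were higher and BCL2 was lower, with a median of -0.29. CDKN1A, the p21 inhibitor induced by p53, was at 3178 and 3922 CPM, a log2 fold of 0.30. BCL2, the antiapoptotic founder of its family, was at 49.7 and 21.9 CPM, 2.27-fold lower (1.97 to 2.62). CDKN2A, the p16 locus, was 4.87-fold higher (3.56 to 6.71) from 66 and 111 UMIs, and 3 spheroid cells held at least 50% of theirs. The CDKN2A level in attached cells, 2.24 CPM, lay below that of CD79A, and the call was lost with thinning. Other p53 targets lay under 0, with MDM2, the p53 ubiquitin ligase, at -0.61 and BAX, a pore-forming apoptosis protein, at -0.29.

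All 5 measured angiogenic factors were higher, with a median of 1.34. VEGFA, the main endothelial growth factor and a target of hypoxia signalling, was at 4889 CPM in attached and 10175 CPM in spheroid cells, 2.08-fold higher (2.07 to 2.10). It was near the call threshold, and UMIs per kept cell without scaling put it under 2-fold. ESM1, endocan, was at 215 and 812 CPM, 3.78-fold higher (3.65 to 3.90), with thinned shares of 13.8% and 35.3%. ENG, endoglin, was 2.14-fold higher (2.07 to 2.22), ANGPT1, angiopoietin 1, 2.54-fold higher (2.17 to 2.97) and FGF18 2.79-fold higher (2.12 to 3.67). ANGPT1 and FGF18 rested on 306 and 108 spheroid UMIs.

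VEGFA was the only call among 6 measured hypoxia and glycolysis genes, whose median was 0.30. SLC2A3, a glucose transporter, was just short of a call at 1069 and 2016 CPM and a log2 fold of 0.91. HIF1A, the oxygen-regulated transcription factor, and GAPDH, a glycolytic enzyme, had log2 folds of 0.36 and 0.24, and CA12, a carbonic anhydrase, -0.40. The list's UMIs per 1000 UMIs, mostly GAPDH, had a median of 209 in attached and 250 in spheroid cells.

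Receptors and ligands of the PDGF system lay on opposite sides. PDGFRA was at 1390 CPM in attached and 3728 CPM in spheroid cells, 2.68-fold higher (2.65 to 2.72), with thinned shares of 65.2% and 89.0%. PDGFRB, the other receptor, had a log2 fold of 0.83, and was called under median scaling. The ligand PDGFB was at 135 and 53.4 CPM, 2.53-fold lower (2.31 to 2.77), and PDGFA had a log2 fold of -0.87. PDGFRB was detected in 39.4% of spheroid cells with PDGFRA and in 27.0% of those without.

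All 4 measured genes of the insulin-like growth factor axis lay under 0, as did 171 of all 268 measured genes. The list had a median of -0.71 and 1 call. IGFBP5, a binding protein that holds these factors in the matrix, was at 480 and 196 CPM, 2.46-fold lower (2.34 to 2.57), and 11 spheroid cells held at least 50% of its UMIs. This only call of the list was lost under median scaling, with the mean of each cell's CPM and with thinning. IGFBP7, a further binding protein, had a log2 fold of -0.63 and the receptor IGF1R -0.79. IGFBP3 had a log2 fold of -0.54 from 607 attached and 144 spheroid UMIs, but it rested on few cells: without the top cell of each population it was 2.31-fold lower, from 595 and 89 UMIs, and without cells that matched another population better its log2 fold was -1.95. IGFBP3 was a lower call under 5 alternatives.

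Matrix genes were mixed: 2 of 12 were higher and 1 lower, with a median of -0.01. COL3A1, a fibrillar collagen, was at 146 CPM in attached and 988 CPM in spheroid cells, 6.77-fold higher (6.53 to 7.02), with thinned shares of 10.98% and 39.2%. DCN, the small proteoglycan decorin, was at 61.6 and 380.5 CPM, 6.18-fold higher (5.84 to 6.53), but 24 spheroid cells held at least 50% of its UMIs. COL1A1, the major fibrillar collagen, was at 1874 and 2708 CPM, a log2 fold of 0.53. THBS1, a matricellular inhibitor of angiogenesis, was at 2555 and 1081 CPM, 2.36-fold lower (2.32 to 2.41). The matrix metalloprotease MMP2 had a log2 fold of -0.79 and fibronectin, FN1, one of 0.41.

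In the mesenchymal list 2 of 10 were higher and none lower, with a median of -0.01. S100A4, a calcium-binding protein associated with motility, was at 2381 and 9811 CPM, 4.12-fold higher (4.08 to 4.16), and its thinned share was 54.7% in attached and 92.7% in spheroid cells. TGFB1, a growth factor that induces the mesenchymal state, was at 5.13 and 33.9 CPM, 6.62-fold higher (5.45 to 8.07). The transcription factors SNAI2 and TWIST1 lay on opposite sides, at 0.44 and -0.77.

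Basal epithelial genes were lower in 4 of 10 cases and higher in 1, with a median of -0.36, next to that of all measured genes. KRT14, the partner keratin of KRT5, was at 219 and 66.6 CPM, 3.29-fold lower (3.04 to 3.57), and 5 spheroid cells held at least 50% of its UMIs. With cells of 1000 to 5000 UMIs the KRT14 call was lost, at a log2 fold of -0.73. TP73, a p53 relative, was at 209 and 73.1 CPM, 2.87-fold lower (2.65 to 3.10). FOXC1, a transcription factor of basal-like tumours, was 2.50-fold lower. ITGA6, the laminin receptor subunit, was at 1693 and 3116 CPM, a log2 fold of 0.88, KRT17 was at 0.67 and CDH3, P-cadherin, at -0.18. Luminal genes were higher in 2 of 17 cases (MLPH and CLDN4, a tight junction claudin with 66 and 60 UMIs) and lower in 3 (CD24, FOXA1 and GPR160), with a median of -0.15.

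Of 13 measured adhesion genes 2 were higher and 2 lower, with a median of -0.30. CDCP1, a transmembrane substrate of SRC, was at 4381 and 9263 CPM, 2.11-fold higher (2.10 to 2.13), and ITGB2, an integrin of white blood cells, 2.07-fold higher (1.69 to 2.54) from 235 and 168 UMIs, a call lost without cells that matched another population better, with thinning and without scaling. CDH6, K-cadherin, was 3.10-fold lower (2.94 to 3.28) and PVR, the nectin-like poliovirus receptor, 2.58-fold lower (2.52 to 2.64). ITGB1, the common integrin beta chain, had a log2 fold of -0.70 and CD44, the hyaluronan receptor, -0.49.

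**Figure D4:**
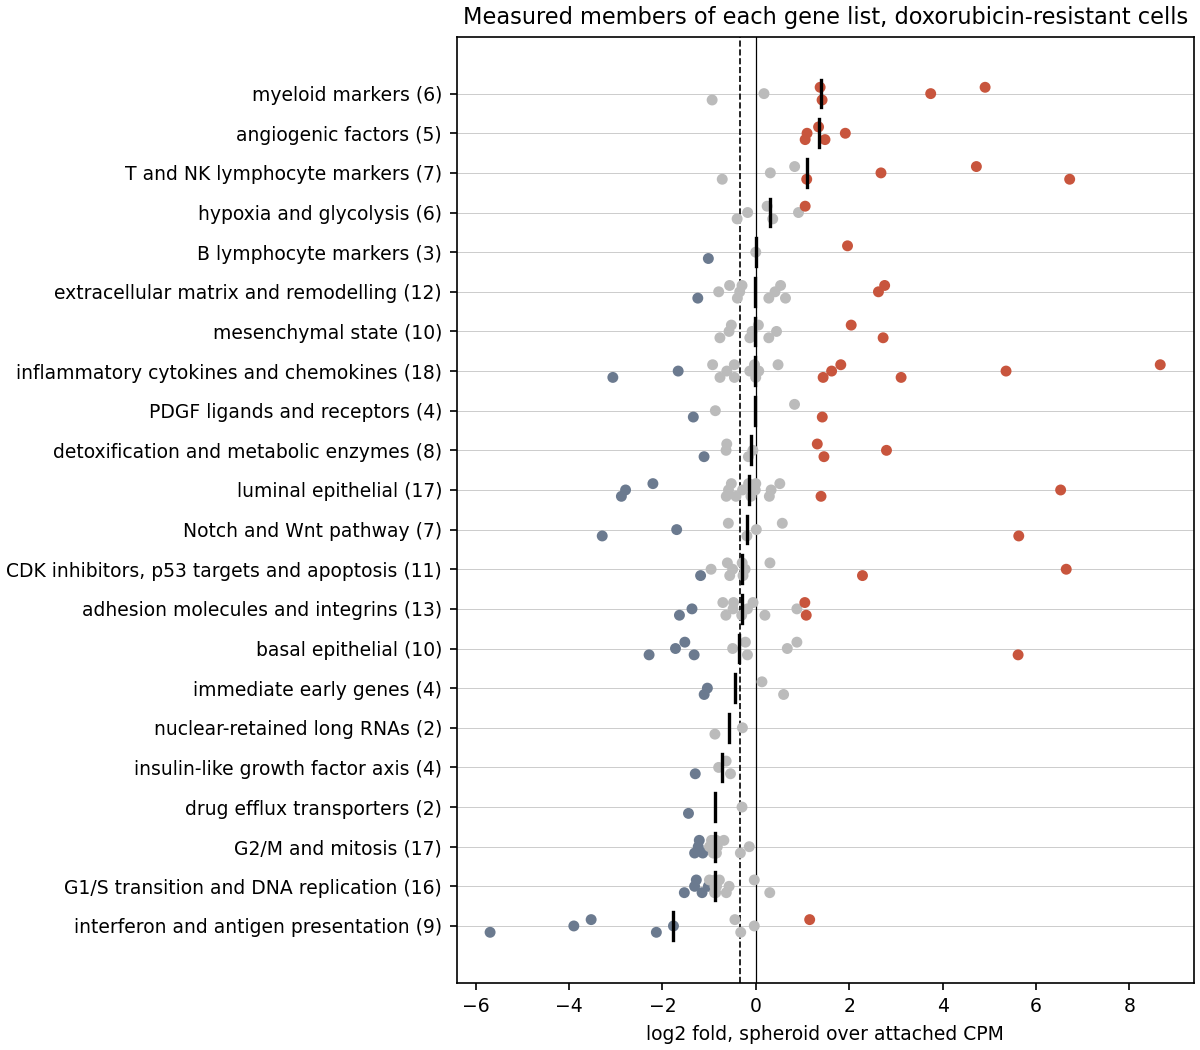
Log2 fold (spheroid over attached CPM) of each measured member of the 22 gene lists, with the number of measured members in parentheses, in order of the list median. Red points are called higher, grey-blue points called lower, grey points neither, the thick bar is the list median, and the dashed line is the median of all measured genes (-0.34). Angiogenic factors lie wholly to the right at 1.34, both cell cycle lists lie at -0.87, and inflammatory genes spread from -3.06 to 8.66.

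Inflammatory cytokines and chemokines lay on both sides: of 18 measured, 6 were higher and 2 lower, with a median of -0.01. Besides S100A8 and S100A9, PTGS2, the inducible cyclooxygenase, was at 418 and 1475 CPM, 3.53-fold higher (3.45 to 3.62), with thinned shares of 21.7% and 41.0%. TNF, a master inflammatory cytokine, was at 8.42 and 72.8 CPM, 8.64-fold higher (7.48 to 10.02), with at least 50% of the spheroid UMIs in 39 cells. CXCL12, a chemokine that guides CXCR4-bearing cells, was 2.72-fold higher (2.13 to 3.46) from 145 and 136 UMIs, and its log2 fold was 0.98, short of a call, without cells that matched another population better. CCL4, a macrophage chemokine, was 3.08-fold higher (2.73 to 3.48), but 2 spheroid cells held at least 50% of its UMIs. The lower members were IL6 and CXCL14. IL1B, an interleukin of the inflammasome, was at 2906 and 2905 CPM, and CXCL8, a neutrophil chemokine, was at 38345 and 27888 CPM, a log2 fold of -0.46.

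Interferon and antigen presentation genes were lower in 5 of 9 cases, with a median of -1.76, the lowest of the 22 lists. The lower members were CD74, HLA-DRA, HLA-DRB1 and HLA-DQB1, the last with attached cells at the stray level, and CD274, the checkpoint ligand PD-L1, at 233 and 68.6 CPM, 3.39-fold lower (3.14 to 3.67). CIITA, the activator of class II genes, had a log2 fold of -0.03 from 234 and 79 UMIs.

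Of 7 Notch and Wnt genes NOTCH1 was higher, and DKK1 and AXIN2, both targets of Wnt signalling that restrain it, were lower, with a median of -0.19. AXIN2 was at 79.5 and 24.6 CPM, 3.23-fold lower (2.84 to 3.70). CTNNB1, beta-catenin itself, had a log2 fold of -0.59 and WISP1, another Wnt target, 0.57. Of 4 immediate early genes MYC and ID1 were lower. MYC, a driver of growth and division, was at 21213 and 10345 CPM, 2.05-fold lower (2.04 to 2.06), and the call ended when all barcodes were used. ID1, an inhibitor of differentiation factors, was 2.15-fold lower (2.08 to 2.23), and JUN, an AP-1 subunit, lay at 0.60. The nuclear-retained RNAs MALAT1 and NEAT1 had log2 folds of -0.87 and -0.29, and MALAT1, with 239 and 45 UMIs, became a lower call at -1.73 with thinning. AKT1, a survival kinase in no list, was at 1485 and 3423 CPM, 2.30-fold higher (2.27 to 2.34). SLIT2, a guidance glycoprotein, was 2.89-fold lower (2.73 to 3.07).

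Markers of blood cells differed between the cultures as well. Of 7 measured T and NK lymphocyte markers 4 were higher (LCK, TRAC, CD3D and LAG3) and none lower, and the summed level of the list was 28.4 CPM in attached and 110 CPM in spheroid cells. Their median log2 fold was 1.09. CD8A was at 0 in both cultures, CD3E and CD3G had at most 7 UMIs, and PTPRC, the pan-leukocyte antigen CD45, had 81 attached and 17 spheroid UMIs. Of 6 measured myeloid markers 4 were higher (C1QA, FCGR3A, CD14 and GPNMB), and the list summed to 593 and 1560 CPM. Their median log2 fold was 1.40. GPNMB and CD14 made up most of that sum, at 438 and 1172 CPM and at 122 and 316 CPM, and GPNMB, a transmembrane glycoprotein, is also expressed by breast cancer cells. LYZ, a defining myeloid enzyme, had 19 and 4 UMIs. B lymphocyte markers had 1 higher (TCL1A), 1 lower (FCRLA) and CD79A at 3.84 CPM in both, and the list summed to 92.3 and 118 CPM. Among defining markers, CD8A, CD3E, CD3G and LYZ were thus at or near 0 in both cultures, whereas CD3D at 7.33 and 47.0 CPM, TRAC at 0.577 and 15.2 CPM and CD14 at 122 and 316 CPM were higher in spheroids. LCK, TRAC, C1QA and FCGR3A reached the UMI minimum in spheroid cells only, so they could only be called higher. The counts and medians of the T and NK and myeloid lists include them. The calls of LCK, TRAC, LAG3 and FCGR3A were lost with thinning and with a minimum of 200 UMIs per gene. Those of CD3D, C1QA, CD14 and GPNMB were kept in both. The part of other cell types in the differences between the cultures was not tested.

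Leaving out cells that matched another population of their cartridge better gave 45 higher and 46 lower genes, and the higher calls lost were CXCL12, FCGR3A, ITGB2 and RARB. The lower calls lost were EGF and FOXP3, while the calls gained were C4A among higher and CCL3, IGFBP3 and NUF2 among lower genes. The barcodes under 1000 UMIs, which were not used above, showed S100A9 at 20775 CPM and BAD at 636 CPM, both closer to kept spheroid cells than to attached cells. They departed from kept cells in other genes, with VEGFA at 19823 CPM, NEAT1 at 10574 CPM and COL3A1 at 3410 CPM, against 10175, 3327 and 988 CPM in kept cells.

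Treatment-naïve and paclitaxel-resistant cells were carried on the same cartridges and give the same ratio side by side. In treatment-naïve cells 262 genes were measured, with 46 higher (17.6%) and 61 lower (23.3%), and in paclitaxel-resistant cells 255, with 37 higher (14.5%) and 65 lower (25.5%). Called in either direction were 107 (40.8%) and 102 (40%). Of the 48 genes higher in doxorubicin-resistant spheroids 32 were also higher in treatment-naïve cells (66.7% of the 48 and 69.6% of the 46) and 35 in paclitaxel-resistant cells (72.9% of the 48 and 94.6% of the 37), with 26 in both. Of the 45 lower genes 24 were also lower in treatment-naïve cells (53.3% of the 45 and 39.3% of the 61) and 34 in paclitaxel-resistant cells (75.6% of the 45 and 52.3% of the 65), with 19 in both. The higher genes called in neither were CCL4, CD14, CLDN4, FCGR3A, GZMA, RUNX3 and TCL1A, and the lower ones ABCG2, CCNE2, DTL, FOXP3, HLA-DQB1 and KRT14, some for want of 50 UMIs. All populations share the 2 cartridges, so a difference shared by them may belong to culture, medium or cartridge, which cannot be told apart.

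Single genes ran differently in the populations. S100A9 had log2 folds of 8.66 in doxorubicin-resistant, 6.72 in paclitaxel-resistant and 3.85 in treatment-naïve cells. IL6 had log2 folds of -1.66, -1.38 and 0.40 in the same order, ABCG2 -1.44, -0.96 and 0.56, and VEGFA 1.06, 1.04 and -0.29. For each of these the doxorubicin-resistant value was nearer to the paclitaxel-resistant than to the treatment-naïve value. Other genes lay nearer to the treatment-naïve value. In the same order, AREG was at -2.28, 0.46 and -3.93, CD274 at -1.76, 0.05 and -1.96, and PDGFRA at 1.42, 0.66 and 1.94. Which side was more frequent over all genes was not counted. THBS1 was at -1.24, -1.51 and 0.78, and CCNE2 at -1.31, -0.71 and 1.18. The G2/M list was lower in all 3, with medians of -0.87, -1.10 and -1.07 and with 4, 12 and 11 genes called lower. CD24 was at -2.88, -4.75 and -3.97. None of these differences between populations was tested, since each value comes from 1 pool of cells per culture.

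**Figure D5:**
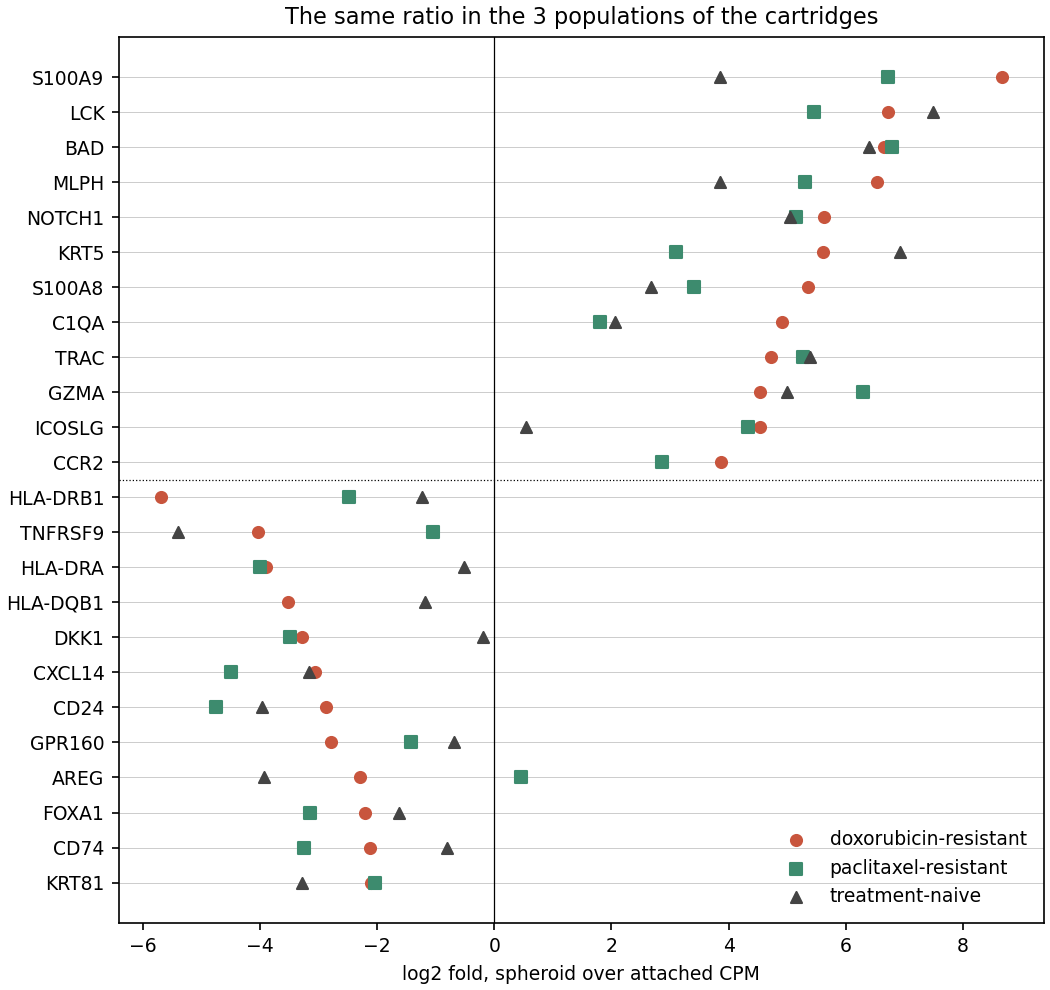
Log2 fold (spheroid over attached CPM, horizontal) in doxorubicin-resistant (red circles), paclitaxel-resistant (green squares) and treatment-naïve cells (dark triangles) for the 12 largest higher and, under the dotted line, the 12 largest lower genes of doxorubicin-resistant cells, including genes with under 50 UMIs in another population. BAD and NOTCH1 lie close together in the 3 populations, while S100A9 spreads from 3.85 to 8.66 and HLA-DRA from -4.00 to -0.52.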

How the data were processed

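Single-cell RNA had been measured in 2 samples of SUM159 cells, attached and spheroid, with the BD Rhapsody Onco-BC targeted panel. The authors deposited a matrix of counts (UMIs per panel gene and cell) for each of 6 populations, made on a cloud genomics platform from cell labels, UMIs and RSEC-adjusted molecules of putative cells. The submitters' processing notes name hg38. Cell filters before deposit are not given in the sources used here, and no doublet caller was run here, so cells above the 98th percentile of UMIs were left out in an alternative.

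Cells of at least 1000 UMIs were kept and the counts were summed per gene and scaled to a total of 1000000 (CPM). A gene was measured with at least 50 UMIs in either population and called at a fold of at least 2 with at least 50 in the higher one. Folds have exact conditional binomial, CPM values exact Poisson and shares exact Clopper-Pearson 95% intervals. They cover counting error only. Over the kept cells a count of 0 allows up to 3 UMIs, or 0.102 CPM in attached and 0.295 CPM in spheroid cells, and 0 positive cells allow a share of 0.0427% and 0.117%. For shares, each cell was thinned to 1000 UMIs in 1 seeded draw, with no kept cell left out. Genes absent from a file were taken as 0 there. With 1 sample per culture no replicate existed, so no test and no p-value is given. Genes were named as the 12 largest folds in each direction, genes the study singles out, and members of 22 gene lists, at least the 2 highest and 2 lowest measured of each. Some genes that this rule names are left out of the text. AKT1, S1PR1 and RARB were named after their values were seen. The members and lists were chosen with earlier results of these data known, and a list is described by its counts and median only. In all, 12 alternatives set with the design and 2 chosen after seeing the data were run (without barcode numbers used on both cartridges, and per gene without the cell holding most of its UMIs). Of 373 symbols 367 matched the RefSeq table of GRCh38.p14, which gave coordinates and promoters. Python 3.11.15, numpy 2.4.6, pandas 2.3.3, SciPy 1.17.1 and matplotlib 3.10.9 were used. The fold script was tested on simulated data.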

Additional observations from a re-analysis of the deposited data

Results flagged for a closer look

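CCNE2, a cyclin of S phase entry, was flagged because its log2 fold (spheroid over attached) was -1.31 in doxorubicin-resistant and 1.18 in treatment-naïve cells, a move in opposite directions. FCGR3A was flagged in the same way, at 3.74 against -2.58, and 1 doxorubicin-resistant spheroid cell held 116 of its 162 UMIs. Neither difference was tested, since each population is 1 pool of cells per culture. S100A9 was flagged because the doxorubicin-resistant spheroid barcodes under 1000 UMIs, which no comparison used, held it at 20775 CPM, against 56.7 CPM in attached cells.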

How the results depend on the processing

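No paired analysis was possible because each culture form was 1 sample. For the same reason no replicate could be left out. The count of genes higher in spheroids stayed between 34 and 56 and kept within 1.5 times the main count of 48 under the 14 alternatives. The count of lower genes moved beyond that only under median-of-ratios scaling, to 26 from 45, where all log2 folds rise by 0.34 by construction. In the other alternatives it lay between 36 and 54. Thinning to 1000 UMIs and a minimum of 200 UMIs per gene each removed the higher calls of CCR2, CDKN2A, CLDN4, CXCL12, FCGR3A, FGF18, FGFR4, GZMA, ITGB2, LAG3, LCK, RARB, RUNX3 and TRAC, all of low count. Restricting to 1000 to 5000 UMIs per cell gave 40 higher and 54 lower. Leaving out barcode numbers used on both cartridges changed no call. No called gene changed direction under any alternative, but the rescaled alternatives shift all genes alike and could not reverse a call. Medians of 10 lists (detoxification, CDK inhibitors and apoptosis, matrix, mesenchymal, luminal, inflammatory, PDGF, adhesion, Notch and Wnt, B lymphocyte) lay near 0 and took the other sign in at least 1 alternative, whereas the medians of the angiogenic list (1.10 to 1.68), the G2/M list (-1.02 to -0.53) and the interferon and antigen presentation list (-1.84 to -1.10) kept theirs. Genes under 50 UMIs in both populations could not be compared at this depth.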
